A study of Mus musculus with 12 samples.

Results

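The genes described here are 37 genes of the hypoxia response and of glycolysis, named by symbol: regulators of the oxygen-sensing pathway, glucose and lactate transporters, the enzymes of glycolysis, and genes known as targets of the hypoxia-inducible factor (HIF). They were measured in cultured primary mouse keratinocytes on Affymetrix Mouse Gene 1.0 ST arrays. A gene was taken where the array annotation gave it a transcript cluster (a set of probes summarised to one value) with that gene as its single symbol. This held for 35 of the 37 members, and all 35 were among the 15868 genes that passed the filter on low values and were tested. Gpi1 and Eno1, which encode glucose-6-phosphate isomerase and enolase, had no cluster of their own and were not analysed here.

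The 12 arrays formed 4 groups of 3, all from FVB/N mice. Wild-type keratinocytes were the control. RAS cells were wild-type keratinocytes transduced with v-rasHa, an oncogenic viral form of Hras. MT-HGF keratinocytes came from transgenic mice in which a metallothionein promoter drives expression of Hgf, whose product hepatocyte growth factor (HGF) activates the receptor MET. The fourth group was mock-transduced MT-HGF keratinocytes given AG1478, which blocks the kinase of the epidermal growth factor receptor, for 24 h. The labels attach a note on RAS transduction for 3 days to the first 9 arrays alike, and they do not say whether the control cells received a mock virus. The effect of v-rasHa and that of the transduction step therefore cannot be told apart. The AG1478-treated cells were kept in 8% FBS, their protocols are worded differently, and no vehicle-treated array of that set was used here, so the drug cannot be told apart from handling and submission. Replicates of the first 3 groups are labelled biological, but no label says that they came from different animals or cultures, so p-values reflect array-to-array spread that may be technical.

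HIF is a transcription factor made of an oxygen-regulated alpha subunit, such as the product of Hif1a, and a constitutive partner. In oxygenated cells prolyl hydroxylases of the Egln family mark the alpha subunit for degradation, a step that acts on the protein and not on the transcript. Stabilised HIF binds short motifs in the promoters and enhancers of genes for glucose uptake, glycolysis, lactate export, angiogenesis and mitochondrial turnover. Growth factor and RAS signalling are known to raise HIF protein and glycolytic genes in oxygenated cells as well.

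The core of the hypoxia response element is ACGTG or GCGTG. Both were searched on both strands of the 250 bases upstream of each RefSeq start site, in promoter sequences of build GRCm38.p6, and CACGTG counts as a pair of overlapping matches. Of the 37 members, 34 had a promoter entry, with 53 start sites among them, and Bnip3l, Ndrg1 and Slc2a3 had none. A motif stood in 40 of these 53 promoters (75.5%), against 12679 of all 32851 promoters (38.6%). The member promoters also held more CpG dinucleotides, with a median of 14 against 6 for all promoters, and both motifs contain a CpG. Counted per gene, 22 of the 24 members with a promoter that were higher in MT-HGF than in wild-type cells had at least 1 motif, and so did all 8 of the other tested members. Over all genes with a promoter entry the count was 11226 of 27025 (41.5%). The motif was thus present about equally in members that were higher in MT-HGF cells and in those that were not. The promoters of 6 members follow, 5′ to 3′ on the strand of the gene with the motifs in capitals, chosen to show members with differing array results: Egln3, Bnip3 and Slc16a3 among those highest in MT-HGF, Pfkfb4 and Hk2 highest in RAS, and Car9 at background.
Egln3, chr12:54203875-54204124, minus strand: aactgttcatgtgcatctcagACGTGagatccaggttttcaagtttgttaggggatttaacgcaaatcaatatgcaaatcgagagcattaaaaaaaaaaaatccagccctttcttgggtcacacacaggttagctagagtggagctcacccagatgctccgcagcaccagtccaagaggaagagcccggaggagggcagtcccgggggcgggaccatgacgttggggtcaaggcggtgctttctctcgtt
Bnip3, chr7:138909507-138909756, minus strand: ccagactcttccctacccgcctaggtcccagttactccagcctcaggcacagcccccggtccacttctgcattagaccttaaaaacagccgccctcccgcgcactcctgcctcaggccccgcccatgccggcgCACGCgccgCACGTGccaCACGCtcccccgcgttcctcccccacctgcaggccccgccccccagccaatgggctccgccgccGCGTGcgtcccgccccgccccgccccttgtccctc
Slc16a3, chr11:120948817-120949066, plus strand: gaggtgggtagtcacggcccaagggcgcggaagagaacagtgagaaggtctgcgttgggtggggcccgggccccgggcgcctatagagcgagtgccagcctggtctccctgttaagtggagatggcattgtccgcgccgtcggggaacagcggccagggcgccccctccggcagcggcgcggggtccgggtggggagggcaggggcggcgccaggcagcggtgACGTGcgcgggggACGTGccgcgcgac
Pfkfb4, chr9:108991652-108991901, plus strand: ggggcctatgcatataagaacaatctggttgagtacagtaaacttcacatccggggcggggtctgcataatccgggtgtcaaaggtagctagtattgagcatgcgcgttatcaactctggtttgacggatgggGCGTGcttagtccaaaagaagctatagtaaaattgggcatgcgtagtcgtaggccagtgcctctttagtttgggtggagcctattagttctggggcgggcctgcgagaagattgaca
Hk2, chr6:82774455-82774704, minus strand: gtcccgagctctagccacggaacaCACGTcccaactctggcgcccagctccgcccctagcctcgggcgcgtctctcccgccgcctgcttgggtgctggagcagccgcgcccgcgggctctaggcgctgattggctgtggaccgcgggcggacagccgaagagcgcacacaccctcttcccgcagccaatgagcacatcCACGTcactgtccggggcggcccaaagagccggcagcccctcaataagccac
Car9, chr4:43506776-43507025, plus strand: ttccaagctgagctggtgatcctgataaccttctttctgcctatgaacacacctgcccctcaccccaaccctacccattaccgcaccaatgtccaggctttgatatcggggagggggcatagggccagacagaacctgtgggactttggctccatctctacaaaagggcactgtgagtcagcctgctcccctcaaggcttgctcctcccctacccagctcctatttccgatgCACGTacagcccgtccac
Bnip3 had 5 motif starts in this window, at positions -117 to -35 from the start site, of which one pair is an overlapping CACGTG. Slc16a3 and Hk2 had 2 motif starts each. Egln3, Pfkfb4 and Car9 had 1 each. A match describes these letters and is not evidence of binding, and no binding was measured here.

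Values are log2 expression, so a difference of 1 log2 unit is a 2-fold change. The array background, taken as the 95th percentile of 159 chemosensory receptor genes, lay between 6.80 and 7.12 log2 units. The median difference of these receptor genes was -0.08 log2 units in MT-HGF against wild-type cells, where 137 were below 0. It was 0.09 in AG1478-treated against untreated MT-HGF cells, where 142 were above 0. Member differences were not corrected for these shifts. Hgf was at background in wild-type and RAS cells and stood at 10.68 log2 units in MT-HGF cells, at least 13.4-fold higher than in wild type (adjusted p = 3.38e-16). The summed linear level of 12 keratinocyte markers, none at background, ranged from 50555 to 53671 over all 12 arrays. Of these, 2 were called higher and 1 lower than wild type in RAS cells, against 12.6% and 19.9% of all genes. MT-HGF cells also had 2 higher and 1 lower, against 17.1% and 23.9%. The 10 melanocyte markers, also all above background, summed to between 14001 and 15455 in wild-type, 14816 and 16269 in RAS, 11008 and 12382 in MT-HGF, and 11009 and 12189 in AG1478-treated cells. The 11 measured fibroblast markers summed to between 8799 and 9356 in wild-type cells, 5871 and 5925 in RAS, 6163 and 6445 in MT-HGF and 6570 and 6837 after AG1478. Single fibroblast markers went both ways in MT-HGF against wild-type cells, with 3 called higher and 7 lower, against 17.1% and 23.9% of all genes. In RAS none was called higher and 7 lower, against 12.6% and 19.9%. In wild-type cells Lum and Dpt of this list were at background. The 7 measured leukocyte markers summed to between 1148 and 1206 in wild-type, 1626 and 1820 in RAS, 1569 and 1707 in MT-HGF, and 1466 and 1755 in AG1478-treated cells. Of these, Cd68 was called higher than wild type in RAS (1.29 log2 units) and MT-HGF cells (1.28), and Lyz2 fell to background in both. Ptprc, Itgam and Csf1r were at background throughout, as were 7 of the 8 measured endothelial markers, among them Pecam1 and Cdh5. The 8 endothelial markers summed to between 999.5 and 1038 in wild-type and 839 and 892 in RAS cells. The sums were between 843 and 859 in MT-HGF and 801 and 870 in AG1478-treated cells. The melanocyte, fibroblast, leukocyte and endothelial markers thus moved with the groups, and their part in the differences described here was not tested. In such bulk RNA, fewer cells of a type and less RNA per cell cannot be told apart.

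MT-HGF keratinocytes had higher levels of most hypoxia and glycolysis genes than wild-type cells, led by Egln3, Aldoc and Slc16a3. In limma's test, 26 of the 35 measured members were higher in MT-HGF than in wild-type cells at an adjusted p under 0.05, against 17.1% of all genes tested. Only Adm was lower, against 23.9% of all genes. The median member differed by 0.36 log2 units and the median of all genes by -0.03. Of the 26, 8 differed by at least 1 log2 unit, against 3.09% of all genes: Egln3, Bnip3, Slc16a3, Pfkfb4, Aldoc, Car12, Ndrg1 and Ddit4. The arrays of the 2 groups did not overlap for 29 of the 35 members, against 50.4% of all genes.

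RAS cells shared the wild-type control and showed fewer and more mixed differences. Against wild type 9 members were higher and 5 were lower, where 12.6% and 19.9% of all genes were called. The 9 were Egln3, Bnip3l, Hk1, Hk2, Pfkfb4, Aldoc, Vegfa, Adm and Ndrg1, and the 5 were Hif1a, Pdk1, Pfkm, Pfkp and Car12. Of the 9, the 3 genes Hk2, Pfkfb4 and Ndrg1 differed by at least 1 log2 unit, against 2.58% of all genes. The arrays did not overlap for 17 of the 35 members, against 42.9% of all genes. Set directly against RAS cells, MT-HGF cells were higher for 19 members and lower for Hk2, Pfkfb4 and Adm, where 13.4% and 12.6% of all genes were called. Of these, 7 were higher by at least 1 log2 unit, against 0.561% of all genes, and Hk2 was lower by that much, against 0.441%. The arrays of these groups did not overlap for 27 members, against 39.2% of all genes. The plot of differences from wild type shows these patterns gene by gene.

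**Figure D1:**
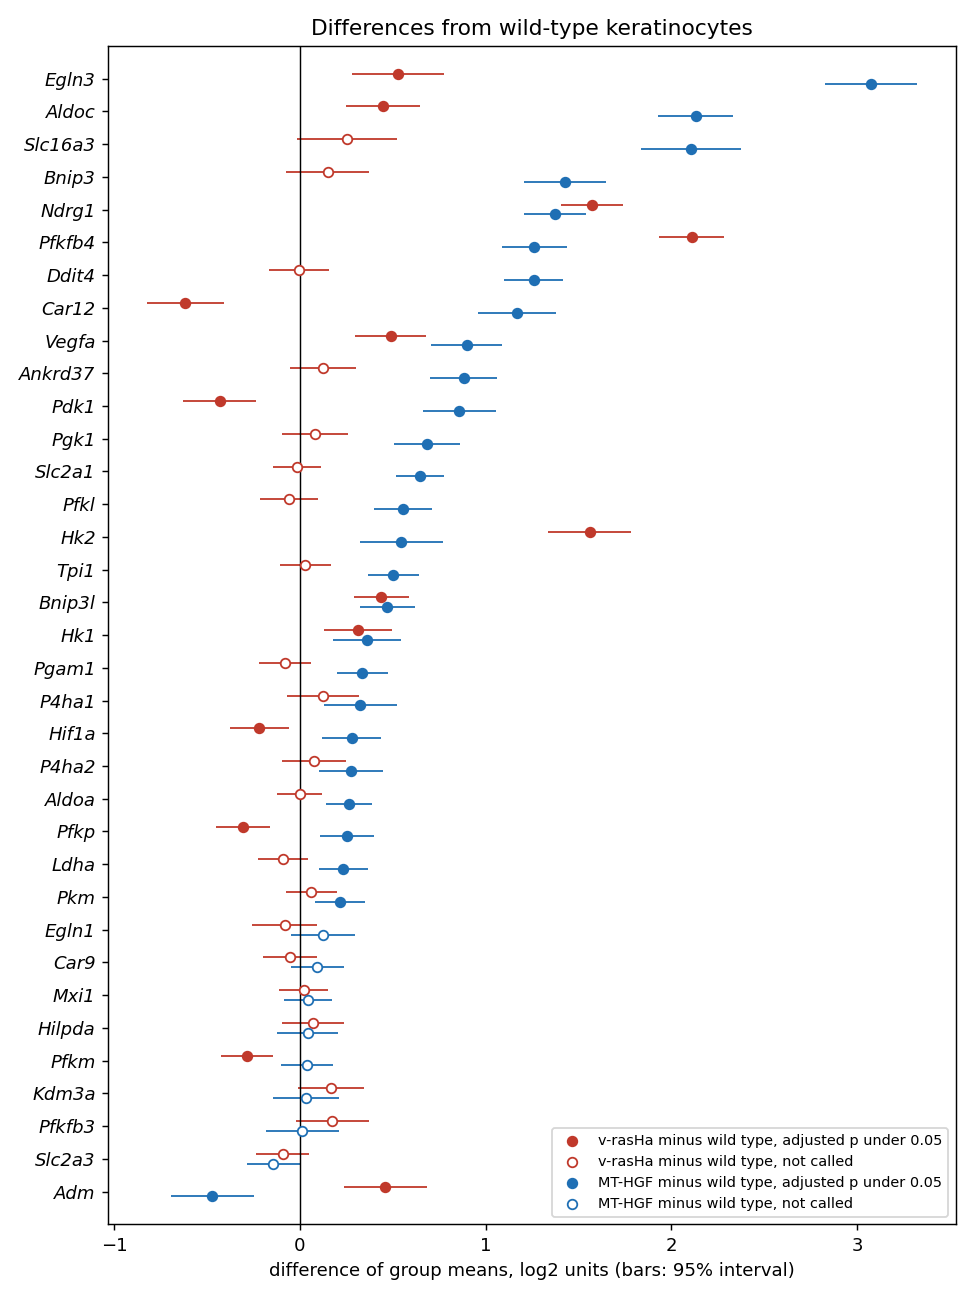
Difference of group means from wild-type cells in log2 units for each of the 35 measured members, for RAS (v-rasHa, red) and MT-HGF cells (blue), ordered by the MT-HGF value; bars are 95% intervals of limma's fit (n = 3 arrays a group), filled points are called, and values of members at background are drawn as measured. Most MT-HGF points lie right of 0, up to 3.08 for Egln3, while RAS points lie on both sides.

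Of the oxygen-sensing genes, Egln3, a HIF prolyl hydroxylase whose transcript is itself a HIF target, had the largest difference of any member. Egln3 stood at 6.44, 6.65 and 6.66 log2 units on the 3 wild-type arrays, at 7.00, 7.13 and 7.21 on the RAS arrays, at 9.59, 9.46 and 9.93 on the MT-HGF arrays and at 9.59, 9.31 and 9.71 after AG1478. The wild-type arrays lay at or below background, and the MT-HGF and AG1478-treated arrays lay well above both other groups without overlap. The level in MT-HGF cells was at least 6.6-fold that of wild type (adjusted p = 2.39e-12) and 5.84-fold that of RAS cells, a difference of 2.55 ± 0.12 log2 units (SE; adjusted p = 7.4e-10). RAS cells exceeded wild type by at least 1.13-fold (adjusted p = 0.00213).

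Hif1a, which encodes the oxygen-regulated subunit itself, differed by small amounts. Hif1a stood at 10.75, 10.65 and 10.58 log2 units on the 3 wild-type arrays, at 10.34, 10.53 and 10.46 on the RAS arrays, at 10.88, 10.99 and 10.95 on the MT-HGF arrays and at 10.88, 10.91 and 10.73 after AG1478. The RAS arrays lay below and the MT-HGF arrays above the wild-type arrays without overlap, while MT-HGF and AG1478-treated arrays overlapped. The difference from wild type was 0.28 ± 0.07 log2 units (SE) in MT-HGF cells (adjusted p = 0.00581) and -0.22 ± 0.07 in RAS cells (adjusted p = 0.0324). The RAS call depended on single arrays, with adjusted p = 0.112 without wild-type replicate 1, 0.0743 without wild-type replicate 2, 0.15 without RAS replicate 1 and 0.0568 without RAS replicate 3. It was also lost with array weights (adjusted p = 0.0738). Egln1, the main prolyl hydroxylase of oxygenated cells, lay between 8.96 and 9.43 log2 units on all arrays. Its difference from wild type was -0.08 in RAS (95% interval -0.25 to 0.09) and 0.13 in MT-HGF cells (interval -0.05 to 0.30), neither called.

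All 3 members that act on mitochondria were higher in MT-HGF cells. Bnip3 and Bnip3l encode receptors that direct mitochondria to autophagy, and Pdk1 encodes a kinase that inhibits pyruvate dehydrogenase and so limits the entry of pyruvate into the citric acid cycle. Bnip3 stood at 8.37, 8.74 and 8.50 log2 units on the 3 wild-type arrays, at 8.74, 8.61 and 8.72 on the RAS arrays, at 9.78, 9.92 and 10.20 on the MT-HGF arrays and at 10.09, 10.02 and 9.90 after AG1478. The wild-type and RAS arrays overlapped, and every MT-HGF and AG1478-treated array lay above them. Bnip3 was 2.69-fold higher in MT-HGF than in wild-type cells, by 1.43 ± 0.10 log2 units (SE; adjusted p = 9e-09), whereas RAS differed from wild type by 0.15 (95% interval -0.07 to 0.37; adjusted p = 0.33). A second Bnip3 cluster gave a smaller difference of MT-HGF from wild-type cells, 1.03 log2 units. Pdk1 stood at 8.20, 8.11 and 8.17 log2 units on the 3 wild-type arrays, at 7.59, 7.71 and 7.89 on the RAS arrays, at 8.95, 8.88 and 9.23 on the MT-HGF arrays and at 9.19, 9.20 and 9.04 after AG1478. RAS arrays were the lowest and the wild-type arrays intermediate, with no overlap among wild-type, RAS and MT-HGF arrays. Pdk1 fell by 0.43 log2 units in RAS (adjusted p = 0.00164) and rose by 0.86 in MT-HGF cells (adjusted p = 1.07e-06). Bnip3l, measured at 12.42 ± 0.12 log2 units in wild type (SD, n = 3), rose to a like extent in both, by 0.44 in RAS and 0.47 in MT-HGF cells, and the direct difference was 0.03 (95% interval -0.12 to 0.18).

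Of the transporters, the lactate exporter gene Slc16a3 and the glucose transporter gene Slc2a1 were higher in MT-HGF cells. Slc16a3 stood at 7.88, 8.09 and 8.23 log2 units on the 3 wild-type arrays, at 8.45, 8.10 and 8.41 on the RAS arrays, at 10.21, 10.22 and 10.08 on the MT-HGF arrays and at 10.20, 10.04 and 9.64 after AG1478. Wild-type and RAS arrays overlapped near 8 log2 units, and all 6 arrays of MT-HGF origin lay above 9.6. Slc16a3 was 4.31-fold higher in MT-HGF than in wild-type cells, by 2.11 ± 0.13 log2 units (SE; adjusted p = 6.87e-10), and 3.61-fold higher than in RAS cells (adjusted p = 2.63e-08). Slc2a1 had means of 12.26 ± 0.03 in wild-type, 12.25 ± 0.04 in RAS and 12.91 ± 0.04 log2 units in MT-HGF cells (SD, n = 3 each). It was 1.57-fold higher in MT-HGF than in wild type (adjusted p = 1.78e-07), and RAS differed from wild type by -0.01 (95% interval -0.14 to 0.11). Slc2a3, another glucose transporter gene, was at background on all 12 arrays and no difference is given.

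**Figure D2:**
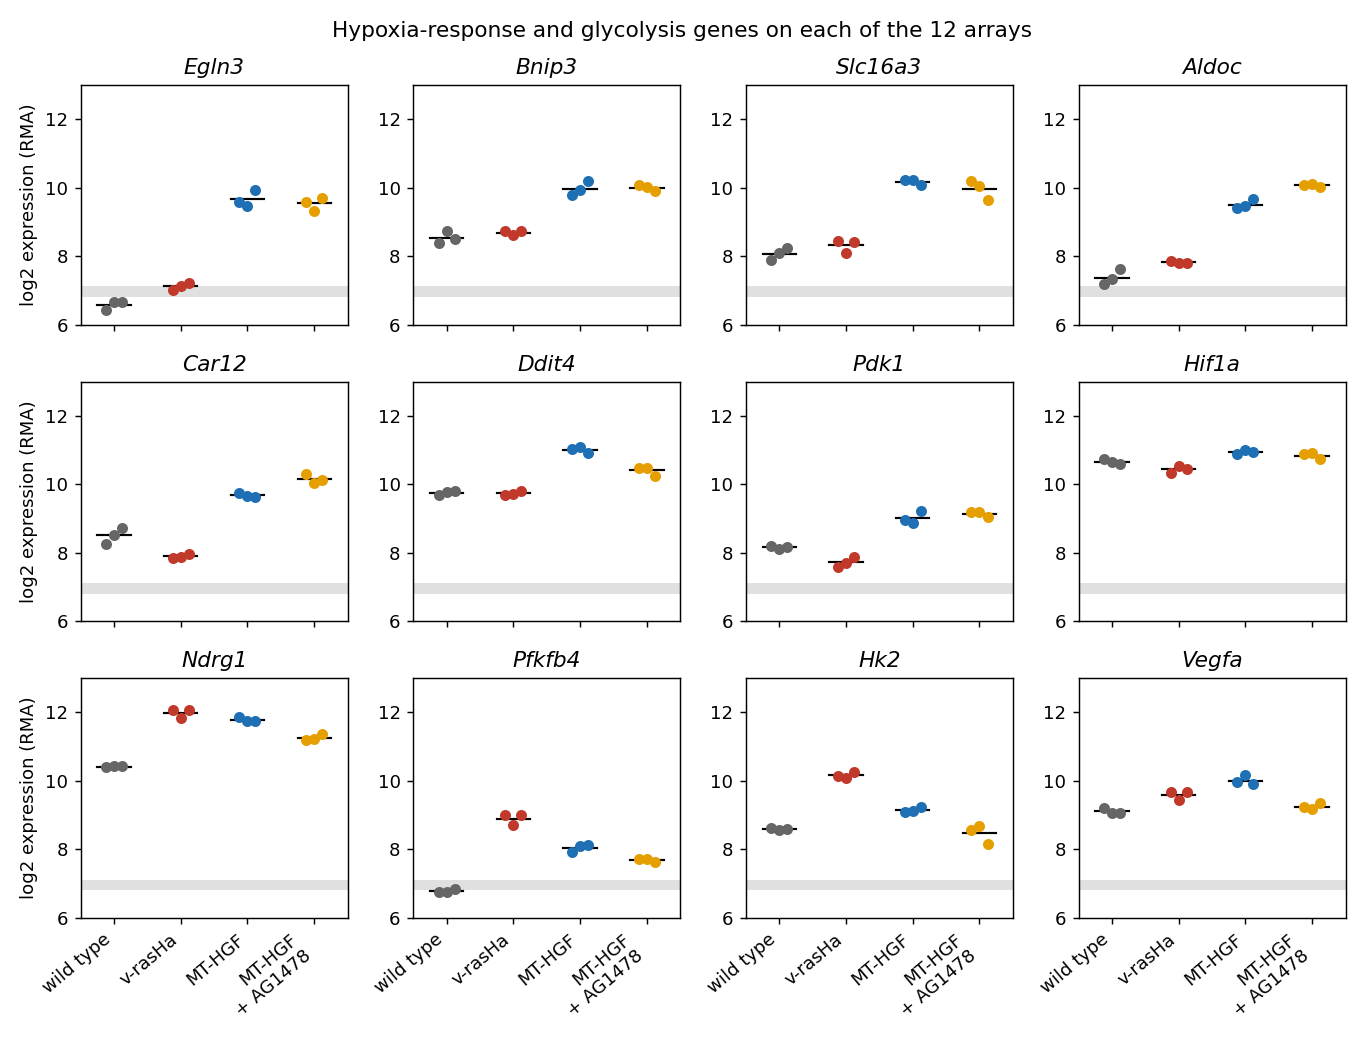
Log2 expression on each of the 12 arrays for Hif1a, Vegfa and the 10 members that were called with a difference of at least 1 log2 unit in some comparison; points are arrays, horizontal bars are group means (n = 3), and the grey band spans the array backgrounds. Egln3, Bnip3, Slc16a3, Aldoc and Ddit4 are high in the MT-HGF arrays, while Hk2 and Pfkfb4 are highest in the RAS arrays (v-rasHa).

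Of the 10 measured genes for the first, energy-consuming steps of glycolysis, 8 were higher in MT-HGF than in wild-type cells, against 17.1% of all genes. In RAS cells 4 were higher and 2 lower than in wild type, against 12.6% and 19.9% of all genes. The share that was lower in RAS was thus near that of all genes. Hexokinase phosphorylates glucose at the entry to the pathway, and Hk2, the regulated form, was highest in RAS cells. Hk2 stood at 8.64, 8.58 and 8.59 log2 units on the 3 wild-type arrays, at 10.14, 10.08 and 10.26 on the RAS arrays, at 9.09, 9.11 and 9.24 on the MT-HGF arrays and at 8.58, 8.68 and 8.15 after AG1478. The RAS arrays exceeded all others, the MT-HGF arrays came next, and wild-type and AG1478-treated arrays overlapped. Hk2 was 2.95-fold higher in RAS than in wild-type cells, by 1.56 ± 0.11 log2 units (SE; adjusted p = 4.3e-09), and 1.46-fold higher in MT-HGF than in wild type (adjusted p = 0.000446). MT-HGF cells were lower than RAS cells, with a difference of -1.01 (adjusted p = 2.79e-06). Hk1, the broadly expressed hexokinase, differed from wild type by 0.31 in RAS (adjusted p = 0.00995) and 0.36 in MT-HGF cells (adjusted p = 0.00274). The RAS value was not called without wild-type replicate 1, at 0.23 log2 units (adjusted p = 0.0514). A further Hk1 cluster, put in place of this one, turned the RAS difference to -0.01 (adjusted p = 0.942) and ended the MT-HGF call (0.18; adjusted p = 0.0767). With the mean of both clusters the RAS difference was 0.15 (adjusted p = 0.171).

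Pfkfb4 and Pfkfb3 encode bifunctional enzymes that set the level of the activator of phosphofructokinase. Pfkfb4 stood at 6.76, 6.77 and 6.84 log2 units on the 3 wild-type arrays, at 8.99, 8.71 and 9.00 on the RAS arrays, at 7.91, 8.10 and 8.14 on the MT-HGF arrays and at 7.71, 7.72 and 7.64 after AG1478. The wild-type arrays were at or below background, RAS arrays were the highest, and the 4 groups did not overlap. Pfkfb4 was at least 3.89-fold higher in RAS (adjusted p = 3.71e-12) and at least 2.17-fold higher in MT-HGF cells than in wild type (adjusted p = 2.04e-09), and MT-HGF was lower than RAS by 0.85 log2 units (adjusted p = 1.45e-06). Pfkfb3 gave no called difference in any comparison, with 0.17 for RAS (95% interval -0.02 to 0.37) and 0.01 for MT-HGF against wild type (interval -0.18 to 0.21). Of the phosphofructokinase subunits, Pfkl rose by 0.56 and Pfkp by 0.25 log2 units in MT-HGF cells, while Pfkm and Pfkp fell by 0.28 and 0.31 in RAS cells. In MT-HGF cells all 3 subunit genes were higher than in RAS cells, by 0.61 for Pfkl, 0.32 for Pfkm and 0.56 for Pfkp.

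Aldolase splits the phosphorylated hexose, and the form encoded by Aldoc, best known from brain, was among the members with the largest differences. Aldoc stood at 7.18, 7.32 and 7.62 log2 units on the 3 wild-type arrays, at 7.86, 7.81 and 7.79 on the RAS arrays, at 9.40, 9.45 and 9.66 on the MT-HGF arrays and at 10.06, 10.10 and 10.03 after AG1478. Each group lay above the previous one in the order wild type, RAS, MT-HGF and treated MT-HGF, with no overlap. Aldoc was 4.38-fold higher in MT-HGF than in wild-type cells, by 2.13 ± 0.09 log2 units (SE; adjusted p = 1.63e-11), and 1.36-fold higher in RAS cells (adjusted p = 0.00142). Aldoa, the ubiquitous form, stood at 12.67 ± 0.05 log2 units in wild type (SD, n = 3) and rose by 0.26 in MT-HGF cells (adjusted p = 0.0013). The triose phosphate isomerase gene Tpi1 rose by 0.50 in MT-HGF cells (adjusted p = 7.88e-06).

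The 4 measured genes of the energy-yielding steps and lactate formation were all higher in MT-HGF cells, by 0.22 to 0.69 log2 units. Pgk1, which encodes phosphoglycerate kinase, rose by 0.69 log2 units from a wild-type mean of 11.38 ± 0.14 (SD, n = 3; adjusted p = 4.32e-06). The phosphoglycerate mutase gene Pgam1 rose by 0.34 (adjusted p = 0.00048), the lactate dehydrogenase gene Ldha by 0.23 (adjusted p = 0.00614) and the pyruvate kinase gene Pkm by 0.22 (adjusted p = 0.012). For Pkm the call was lost without MT-HGF replicate 3 (0.19 log2 units; adjusted p = 0.0526). None of the 4 was called in RAS against wild type, with differences between -0.09 and 0.08. Taking the members of both stages together, 12 of the 14 measured enzyme genes were higher in MT-HGF than in wild-type cells. None was lower, against 17.1% and 23.9% of all genes, with a median of 0.35 log2 units. In RAS 4 were higher and 2 lower, against 12.6% and 19.9% of all genes. These counts cover members only, and Gpi1, Eno1 and Gapdh had no tested value.

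**Figure D3:**
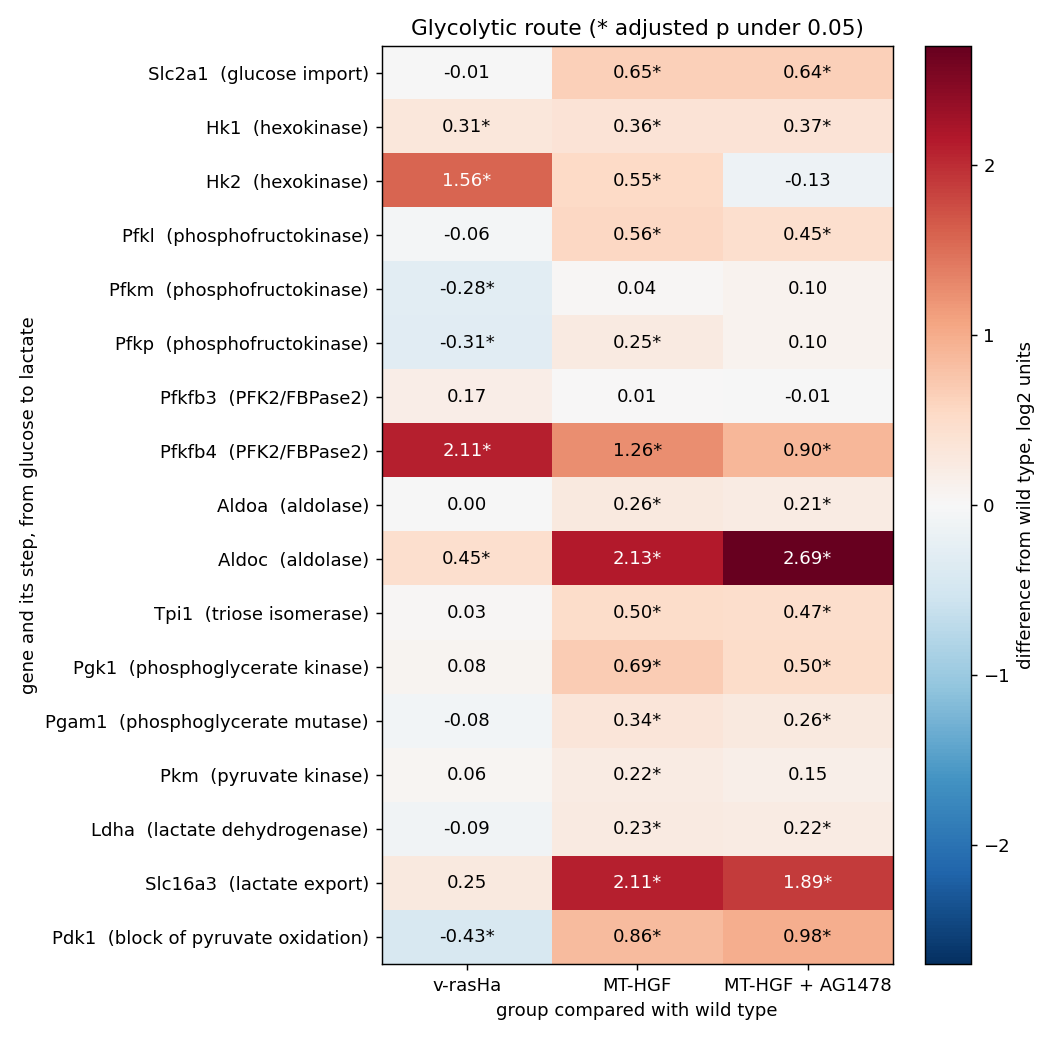
Difference from wild-type cells in log2 units for the measured genes from glucose import to lactate export, with Pdk1 last, in RAS (v-rasHa), MT-HGF and treated MT-HGF cells; colour and number give the difference of group means (n = 3 arrays a group) and an asterisk an adjusted p under 0.05. The MT-HGF column is called for most of the genes drawn, and the RAS column is highest at Pfkfb4 and Hk2 (1.56). Pfkfb4 is drawn as measured although its wild-type level is at background, so its differences are lower bounds in the text.

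Carbonic anhydrases at the cell surface help to export acid, and Car9 and Car12 are both known HIF targets. Car12 stood at 8.27, 8.52 and 8.73 log2 units on the 3 wild-type arrays, at 7.85, 7.87 and 7.96 on the RAS arrays, at 9.73, 9.67 and 9.63 on the MT-HGF arrays and at 10.30, 10.04 and 10.13 after AG1478. The RAS arrays lay below the wild-type arrays and the arrays of MT-HGF origin above them, with no overlap. Car12 fell by 0.62 log2 units in RAS (adjusted p = 0.000108) and was 2.25-fold higher in MT-HGF cells than in wild type (adjusted p = 4.64e-08). MT-HGF exceeded RAS by 1.79 ± 0.10 (SE; adjusted p = 3.53e-09). Car9 was at background on all 12 arrays, between 5.87 and 6.19 log2 units, and no difference is given.

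Among the secreted and matrix members, the angiogenic factor gene Vegfa was higher in both modified cells. Its means were 9.11 ± 0.09 in wild-type, 9.60 ± 0.15 in RAS, 10.01 ± 0.15 in MT-HGF and 9.25 ± 0.09 log2 units in AG1478-treated cells (SD, n = 3 each). Vegfa rose by 0.49 in RAS (adjusted p = 0.000421) and 0.90 in MT-HGF cells (adjusted p = 4.05e-07), and MT-HGF exceeded RAS by 0.41 (adjusted p = 0.00281). Adm, which encodes the vasodilator peptide adrenomedullin, moved in opposite directions. It had means of 9.51 ± 0.13 in wild-type, 9.97 ± 0.16 in RAS and 9.04 ± 0.23 in MT-HGF cells, rose by 0.46 in RAS (adjusted p = 0.00273) and fell by 0.47 in MT-HGF (adjusted p = 0.00165). The direct difference of MT-HGF from RAS was -0.93 (adjusted p = 7.08e-06). P4ha1 and P4ha2, subunits of collagen prolyl hydroxylase, rose in MT-HGF cells by 0.33 (adjusted p = 0.00873) and 0.28 (adjusted p = 0.0109). Both calls were near the threshold. Without wild-type replicate 1, adjusted p was 0.0519 for P4ha1 and 0.0603 for P4ha2, and without MT-HGF replicate 3 it was 0.055 for P4ha2.

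The other HIF targets fell into called and uncalled members. Ndrg1, a stress- and differentiation-induced gene, was high in both RAS and MT-HGF cells. Ndrg1 stood at 10.39, 10.43 and 10.42 log2 units on the 3 wild-type arrays, at 12.07, 11.83 and 12.07 on the RAS arrays, at 11.88, 11.75 and 11.75 on the MT-HGF arrays and at 11.19, 11.21 and 11.39 after AG1478. All RAS and MT-HGF arrays lay above the AG1478-treated arrays, and those above the wild-type arrays. Ndrg1 was 2.97-fold higher in RAS (adjusted p = 7.62e-11) and 2.59-fold higher in MT-HGF cells than in wild type (adjusted p = 3.36e-10). The difference between MT-HGF and RAS, -0.20 (95% interval -0.36 to -0.03), was not called. Ddit4 encodes an inhibitor of mTOR signalling that stress and hypoxia induce. Ddit4 stood at 9.68, 9.78 and 9.79 log2 units on the 3 wild-type arrays, at 9.69, 9.73 and 9.82 on the RAS arrays, at 11.03, 11.08 and 10.92 on the MT-HGF arrays and at 10.48, 10.49 and 10.26 after AG1478. Wild-type and RAS arrays overlapped, and the MT-HGF arrays were the highest. Ddit4 was 2.39-fold higher in MT-HGF than in wild-type cells (adjusted p = 6.58e-10), and RAS differed by 0.00 (95% interval -0.16 to 0.16).

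Ankrd37 was at background in wild-type and RAS cells and at least 1.21-fold higher in MT-HGF cells than in wild type (adjusted p = 2.44e-07), with an MT-HGF mean of 7.22 ± 0.16 log2 units (SD, n = 3). A further 3 members known as HIF targets elsewhere were not called in RAS or MT-HGF against wild type. The histone demethylase gene Kdm3a differed by 0.03 in MT-HGF cells (95% interval -0.14 to 0.21), the MYC antagonist gene Mxi1 by 0.04 (interval -0.09 to 0.18) and the lipid droplet gene Hilpda by 0.04 (interval -0.12 to 0.21). Hilpda lay above background on only 4 of the 12 arrays, so its interval understates the range of changes the array could have missed. Mxi1 and Kdm3a were above background on every array.

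AG1478-treated MT-HGF cells differed from untreated MT-HGF cells for 8 of the 35 members, of which 6 were lower, against 9.91% of all genes, and 2 were higher, against 6.57%. The arrays did not overlap for 13 members, against 34.1% of all genes. The 6 were Vegfa, Hk2, Ddit4, Ndrg1, Pfkfb4 and P4ha1, and the 2 were Aldoc and Car12. Vegfa fell by 0.76 ± 0.09 log2 units (SE; adjusted p = 1.45e-05), Hk2 by 0.68 (adjusted p = 0.000226) and Ddit4 by 0.60 (adjusted p = 2.54e-05). Ndrg1 fell by 0.53 (adjusted p = 0.000137) and Pfkfb4 by 0.36 (adjusted p = 0.00597). P4ha1 fell by 0.32 (adjusted p = 0.0237), a call lost without MT-HGF replicate 3 (adjusted p = 0.114) or AG1478-treated replicate 3 (0.115). Aldoc rose by 0.56 (adjusted p = 0.000491) and Car12 by 0.48 (adjusted p = 0.00247).

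Of the 8 members at least 1 log2 unit higher in MT-HGF than in wild-type cells, Pfkfb4, Ndrg1 and Ddit4 were thus lower after AG1478, Aldoc and Car12 were higher, and Egln3, Slc16a3 and Bnip3 were not called. Pdk1, Slc2a1 and Hif1a, with smaller MT-HGF differences, were not called either. Egln3 differed by -0.12 (95% interval -0.37 to 0.13), Slc16a3 by -0.21 (-0.48 to 0.06), Bnip3 by 0.04 (-0.19 to 0.26) and Pdk1 by 0.12 (-0.07 to 0.32). Slc2a1 differed by -0.01 (-0.14 to 0.12), and Hif1a by -0.10 (-0.26 to 0.06). For Egln3, Slc16a3, Bnip3, Pdk1, Slc2a1 and, narrowly, Hif1a, the interval did not reach a decrease as large as the estimated excess of MT-HGF over wild type. The same MT-HGF arrays enter both values, and the excess is taken here without its own error. Against wild type, AG1478-treated cells were higher for 21 members and lower for 2, where 16.8% and 26.2% of all genes were called. Of the 21, 5 differed by at least 1 log2 unit, against 2.74% of all genes, and the arrays did not overlap for 25 of the 35 members, against 50.5%. The treated and the wild-type arrays also serve in the comparisons already given, so these values stand beside them and are not independent. Aldoc stood 6.46-fold, Egln3 at least 6.06-fold and Slc16a3 3.71-fold above wild type, whereas Vegfa differed from wild type by 0.14 (-0.05 to 0.33), Hk2 by -0.13 (-0.35 to 0.09) and P4ha1 by 0.00 (-0.19 to 0.20). Egln1 and Mxi1 were also called higher than wild type here, by 0.26 (adjusted p = 0.0157) and 0.17 (adjusted p = 0.0312). Egln1 was not called without wild-type replicate 2 (0.0636) or AG1478-treated replicate 2 (0.0713). Mxi1 was not called without wild-type replicate 1 (0.0658), 2 (0.0568) or 3 (0.0837), or without AG1478-treated replicate 1 (0.121) or 2 (0.0617). The 2 lower genes were Adm (-0.30; adjusted p = 0.0317) and Slc2a3, which was at background in both groups. Neither was called without AG1478-treated replicate 2 or without wild-type replicate 3. Adm had adjusted p = 0.0672 and 0.134 in turn, and Slc2a3 had 0.0583 and 0.0659. Adm was also not called without wild-type replicate 2 (0.0816) or AG1478-treated replicate 1 (0.0901).

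**Figure D4:**
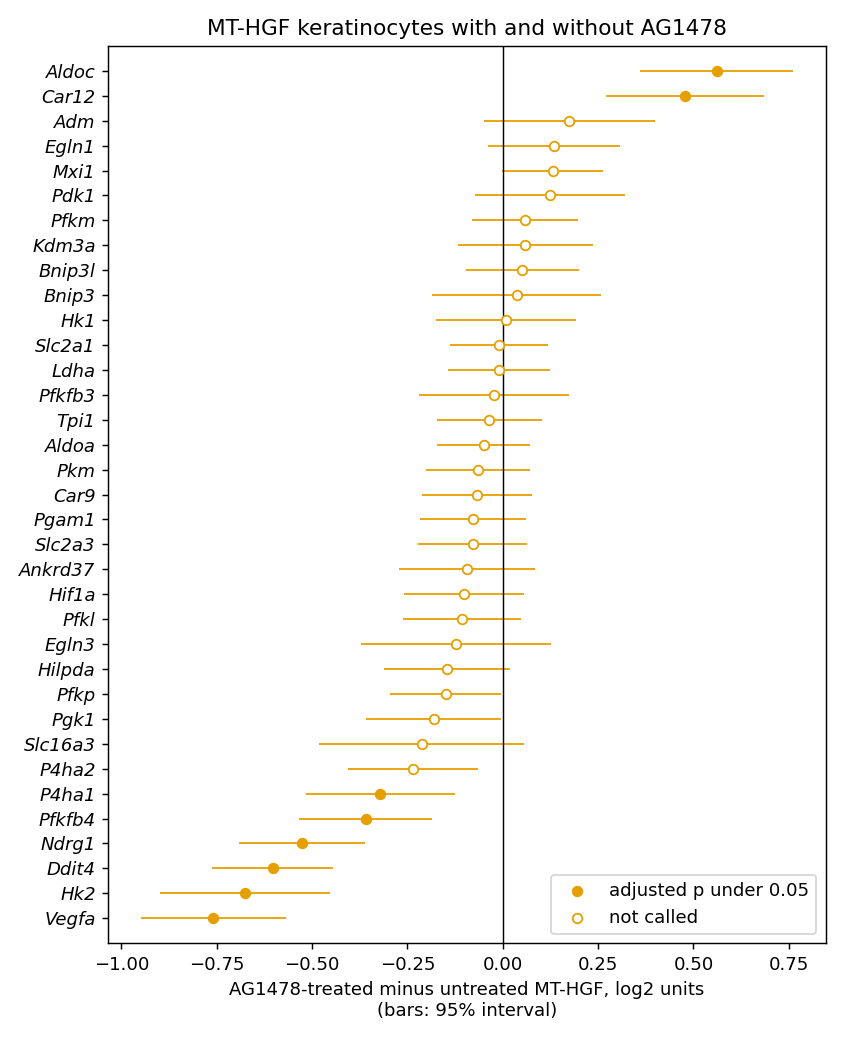
Difference of AG1478-treated from untreated MT-HGF cells for each measured member in log2 units, with 95% confidence intervals of limma's fit (n = 3 arrays a group) and called members as filled points. Vegfa, Hk2 and Ddit4 have the largest decreases, of 0.76, 0.68 and 0.60, and Aldoc the largest increase, 0.56.

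Other genes of the same pathways, from lists that leave out the members, were called in both directions in MT-HGF cells. The shares of all genes to set beside each count are 17.1% higher and 23.9% lower in MT-HGF, and 12.6% and 19.9% in RAS against wild type. Of 36 measured further HIF targets 14 were higher and 11 lower in MT-HGF than in wild type, with a median of 0.14 log2 units. Stc1, at background in wild-type cells, had the largest increase and was at least 1.82-fold higher (adjusted p = 9.06e-12). Igfbp3, an insulin-like growth factor binding protein gene, was higher by 1.45 (adjusted p = 1.66e-09) and Hmox1, which encodes heme oxygenase, by 1.17. The collagen cross-linking enzyme gene Lox fell by 2.85 (adjusted p = 3.69e-14). In RAS cells the same list had 11 higher and 11 lower, with Hmox1 at 2.19, Igfbp3 at 2.04 and Lox at -2.56. Of 17 measured further genes of the HIF pathway itself, 3 were higher and 5 lower in MT-HGF cells. Epas1, which encodes another HIF alpha subunit, rose by 0.79 in RAS (adjusted p = 3.67e-05) and 1.36 in MT-HGF cells (adjusted p = 4.16e-08), and MT-HGF exceeded RAS by 0.57 (adjusted p = 0.00126). The asparaginyl hydroxylase gene Hif1an, whose product restrains HIF activity, fell by 0.44 in MT-HGF cells (adjusted p = 0.000135). The coactivator gene Crebbp fell by 0.38 in MT-HGF cells (adjusted p = 0.00043). Epas1, Hif1an and Crebbp had the largest called differences of this list in MT-HGF cells, and its other called genes went in both directions.

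The same shares of all genes, 17.1% higher and 23.9% lower in MT-HGF cells, stand beside the lists of metabolic genes. Around the glycolytic members, 19 further genes of glucose metabolism were measured, of which 4 were higher and 2 lower in MT-HGF than in wild-type cells, and Pgm1, a phosphoglucomutase gene, was higher by 0.74 (adjusted p = 0.000228). Of 15 genes of gluconeogenesis, the pentose phosphate pathway and serine synthesis, 7 were higher and none lower, led by the ribose phosphate isomerase gene Rpia at 1.38 (adjusted p = 1.12e-09). After AG1478, 7 of these 15 were lower, against 9.91% of all genes, among them Pck2 (-1.04) and Rpia (-0.86). Of 20 genes for pyruvate oxidation and lactate, 6 were higher and 7 lower in MT-HGF cells. The lower ones included Pdpr at -0.997 (adjusted p = 8.86e-08) and Pdha1, a subunit gene of pyruvate dehydrogenase, at -0.71 (adjusted p = 3.87e-06). The counts include the monocarboxylate transporter gene Slc16a7, called lower, and Pdk4, called higher. Both genes were at background in wild-type and MT-HGF cells, so no difference is given for them. Subunits and regulators of pyruvate dehydrogenase in this list moved in both directions, for example, chosen after their values were seen, the subunit gene Pdhb at 0.25 and the kinase gene Pdk2 at -0.63. Of 17 citric acid cycle genes 1 was higher and 6 lower, with Idh2 at 0.63 and Fh1 at -0.48. Of 22 respiratory chain genes 1 was higher and 4 lower, and Ndufa4 was the higher one at 0.35. After AG1478 the other lists had the following counts, beside 6.57% higher and 9.91% lower of all genes. Further HIF targets had 4 higher and 7 lower of 36, and the HIF pathway 2 and 2 of 17. Glucose metabolism had 2 higher and 4 lower of 19, and pyruvate oxidation and lactate 2 and 4 of 20. The citric acid cycle had 0 higher and 1 lower of 17, and the respiratory chain 0 and 1 of 22.

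Several clusters stood for 6 of the members. The other clusters were also called higher in MT-HGF than in wild-type cells for all but Hk1, with a smaller difference for Bnip3. In MT-HGF against wild type the second cluster of Bnip3 gave 1.03 against 1.43 log2 units, that of Bnip3l 0.57 against 0.47, and that of Pkm 0.20 against 0.22. Pgk1 had 3 clusters, at 0.69, 0.69 and 0.66, of which 2 hold identical values and are not separate measurements. Pgam1 had 0.34 and, in 2 identical clusters, 0.35. For Hk1 the other cluster lists no RefSeq transcript and shares its accession with 17 further clusters, 16 of which carry several gene symbols. The Hk1 values thus rest on the RefSeq cluster alone.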

How the data were processed

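Total RNA of 12 primary keratinocyte samples was hybridised to 1 array each. The deposited log2 values were made by the authors with RMA, per the submitters' processing notes, with no version stated there. Groups came from the sample titles and sources. The members, gene lists and tests were chosen with earlier results of these data known.

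Of 35511 clusters, the platform's annotation gave 21789 a single symbol. The filter required a value over the 30th percentile of the array on 3 or more of the 12 arrays. A gene with several kept clusters (815 genes) took the one with the highest mean among those listing a RefSeq transcript, a rule chosen after the annotation was seen. One mean per group was estimated from the 12 arrays together (limma 3.58.1, R 4.3.3), with two-sided p-values adjusted by Benjamini-Hochberg over 15868 genes and called under 0.05. The script was checked on simulated data. A gene at or below background on all 3 arrays of the lower group is given as a bound. Array number limits the precision, and arrays have no read depth.

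Every member is named. Values on each array are given for Hif1a and for members called with a difference of at least 1 log2 unit in some comparison. Of the other pathway lists, the 3 called genes with the largest difference per list and comparison could be named. Outside this rule, Hmox1 in MT-HGF cells is added for comparison with RAS. Gapdh is named as not tested and Pdk4 as a called gene at background. Pdhb and Pdk2 are examples chosen after their values were seen. Alternatives covered the fit, filter, groups in the fit, scaling, normalization, variance prior, cluster choice, replicate block and leaving out each array.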

Additional observations from a re-analysis of the deposited data

How the results depend on the processing

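The counts of called members kept within 1.5 times under most alternatives. With array weights, 2 members were lower in MT-HGF than in wild type (1 in the fit reported) and 4 were higher after AG1478 (2 reported). Over all 15868 genes the calls rose as well under array weights. Genes lower in MT-HGF than in wild type went from 3791 to 5111, and genes higher after AG1478 from 1042 to 1865. The cause was not tested. Under the stricter filter, which tests fewer genes, 1 member was lower in AG1478-treated MT-HGF than in wild-type cells (2 reported). Taking the Hk1 cluster with the highest mean whatever its accession, an alternative chosen after seeing the data, turned the RAS difference of Hk1 to -0.0114 log2 units (0.31 reported), since another cluster then stands for the gene.

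Leaving out each array in turn gave 8 to 9 members higher and 4 to 5 lower in RAS than in wild-type cells, and 24 to 27 higher and 1 lower in MT-HGF than in wild-type cells. Between MT-HGF and RAS it gave 19 to 20 higher and 3 to 4 lower, after AG1478 2 higher and 5 to 7 lower than untreated, and 19 to 23 higher and 0 to 2 lower than wild type. Called members lost their call in 8 of 308 recomputed values when RAS was compared with the wild-type control, in 5 of 594 when MT-HGF was, in 0 of 484 between MT-HGF and RAS, in 2 of 176 between treated and untreated MT-HGF, and in 18 of 505 between treated MT-HGF and the wild-type control. In the last, calls of Egln1, Mxi1, Aldoa, Ldha, Pgam1 and Hk1 were among those lost.

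The replicate numbers did not pair the arrays across all 4 groups: the deviations of same-numbered arrays correlated between -0.44 and 0.53. Among wild-type, RAS and MT-HGF arrays, replicate 1 correlated at 0.40, 0.53 and 0.47 and replicate 3 at 0.27, 0.35 and 0.50. Replicate 2 gave -0.24, 0.05 and 0.09. Pairs with AG1478-treated arrays lay between -0.44 and 0.22. A shared batch or preparation of same-numbered arrays in the first 3 groups was not tested. With the replicate block in the model, RAS cells had 9 members higher and 5 lower than wild type and MT-HGF cells had 26 higher and 1 lower. MT-HGF had 19 higher and 3 lower than RAS. Treated MT-HGF cells had 2 higher and 6 lower than untreated ones and 21 higher and 2 lower than wild type. Each count equals the one without the block.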
